A study of Mus musculus with 16 samples.

Results

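The genes described here carry cholesterol through the cell: 18 code for enzymes that build it, 4 control that synthesis, 4 move or esterify it and 3 export it. They were followed in 4 populations of Pdgfrb+ cells, cells that display a receptor for platelet-derived growth factor, isolated by flow cytometry on postnatal day 7 from C57BL/6 mice, whose epididymal white fat was the source. The populations are named MLCs, SMCs, APCs and FIPs, short in work on these cells for mesothelial-like cells, smooth muscle-like cells, adipocyte precursor cells and fibro-inflammatory progenitors, with 4 bulk RNA-seq libraries each and no treatment. The genes were chosen as a list of symbols, with earlier results of these data known, and looked up in the deposited table of normalized counts. All 29 were among its 27179 rows. Of these, 28 reached a normalized count of 10 or more in 4 or more of the 16 libraries and were among the 15024 genes tested. Abcg1 did not reach that level. The labels do not say whether the 4 libraries of a population came from separate animals or sorts, so p-values measure the spread between libraries, which may be technical. In bulk RNA, fewer cells that express a gene and less of its RNA per cell cannot be told apart.

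Cells make cholesterol from acetyl-CoA through mevalonate, isoprenoid diphosphates and squalene, and then through lanosterol and a run of sterol steps. The transcription factor SREBP-2, the product of Srebf2, drives the genes of this route and is kept in the endoplasmic reticulum by its escort Scap and by the Insig proteins when sterols are plentiful. Cholesterol taken up in lipoproteins leaves lysosomes through Npc2 and Npc1, and the surplus is esterified by Soat1 or handed by Abca1 to apolipoproteins. Abca1 and some of the apolipoprotein genes are targets of the sterol-sensing LXR receptors. In white fat, adipocytes hold a large pool of free cholesterol.

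The promoters of a few genes show which short motifs they share. The RefSeq windows on GRCm38.p6 run from 250 bases before to 50 bases after an annotated start, and 23 of the 29 genes had at least 1. Some genes had several, and a window's start need not be the outer end of the gene as printed below, as for Abca1. Those without an entry were Fdps, Fdft1, Sqle, Npc1, Stard4 and Abcg1. Shown are Hmgcs1, which had the highest level per kilobase among the enzymes, Idi1, the enzyme gene with the widest spread between populations, Insig1, a controlling gene, and Abca1, an exporter with another order of populations. Each window is written 5′ to 3′ on the gene's own strand. Capitals mark the CCAAT box on either strand (CCAAT or ATTGG) and the core of a sterol regulatory element (TCACNCCAC on either strand).
Hmgcs1, chr13:119690101-119690400, + strand: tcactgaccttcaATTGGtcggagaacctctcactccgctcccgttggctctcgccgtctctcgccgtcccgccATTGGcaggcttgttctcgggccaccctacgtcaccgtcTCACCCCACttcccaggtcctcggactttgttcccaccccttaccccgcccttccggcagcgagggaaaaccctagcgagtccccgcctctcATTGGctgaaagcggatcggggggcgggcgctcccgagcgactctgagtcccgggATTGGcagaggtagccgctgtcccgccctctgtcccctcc
Idi1, chr13:8885356-8885655, + strand: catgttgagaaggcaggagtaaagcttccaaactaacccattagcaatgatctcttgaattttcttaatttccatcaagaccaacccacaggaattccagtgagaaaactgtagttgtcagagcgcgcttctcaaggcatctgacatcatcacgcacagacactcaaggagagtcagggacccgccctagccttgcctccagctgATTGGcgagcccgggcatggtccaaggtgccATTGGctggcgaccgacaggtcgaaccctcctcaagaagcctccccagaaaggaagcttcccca
Insig1, chr5:28071162-28071461, + strand: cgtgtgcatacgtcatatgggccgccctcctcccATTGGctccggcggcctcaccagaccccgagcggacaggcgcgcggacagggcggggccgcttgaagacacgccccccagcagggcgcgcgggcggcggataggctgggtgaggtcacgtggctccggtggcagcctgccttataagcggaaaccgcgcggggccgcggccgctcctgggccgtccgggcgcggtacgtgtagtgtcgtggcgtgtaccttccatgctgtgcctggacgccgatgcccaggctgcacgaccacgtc
Abca1, chr4:53159846-53160145, - strand: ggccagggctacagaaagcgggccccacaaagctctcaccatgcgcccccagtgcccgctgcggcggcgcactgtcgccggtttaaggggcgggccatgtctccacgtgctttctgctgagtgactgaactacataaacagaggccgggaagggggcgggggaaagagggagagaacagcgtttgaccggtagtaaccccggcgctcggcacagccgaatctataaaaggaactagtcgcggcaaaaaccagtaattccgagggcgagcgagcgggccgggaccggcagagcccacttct

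The window of Hmgcs1 held 4 CCAAT boxes and 1 sterol element core, that of Idi1 held 2 CCAAT boxes, that of Insig1 held 1, and that of Abca1 held neither motif. Across the windows, 14 of 15 enzyme genes (all but Acat2) and 5 of the 8 other genes held a CCAAT box, a motif bound by NF-Y, against 41.1% of all 27025 genes with a window. A GC box (GGGCGG on either strand), the motif of Sp factors, was found for 14 of 15 enzyme genes (all but Pmvk) and 7 of the 8 others, against 38.2% of all genes. These shares cover every gene with a window, expressed here or not. Whether either motif is particular to this pathway was not tested. The sterol element core was present for Hmgcs1 alone among the 23, against 1.44% of all genes. The E box CACGTG, which reads the same on both strands, was found for 3 enzyme genes and 3 others, against 8.09% of all genes. No window held AGGTCA exactly repeated after 4 bases, 1 form of the site that LXR receptors bind, against 0.0148%. So few genes held this exact form that its absence here says little about LXR sites. Genes with several windows, such as Insig2 and Apoe, had more chances of a match, and a match is only a run of letters in this window. Only the exact letters given were searched. Variant sites and sites outside the windows went uncounted, so a missing match does not show a missing site.

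**Figure D1:**
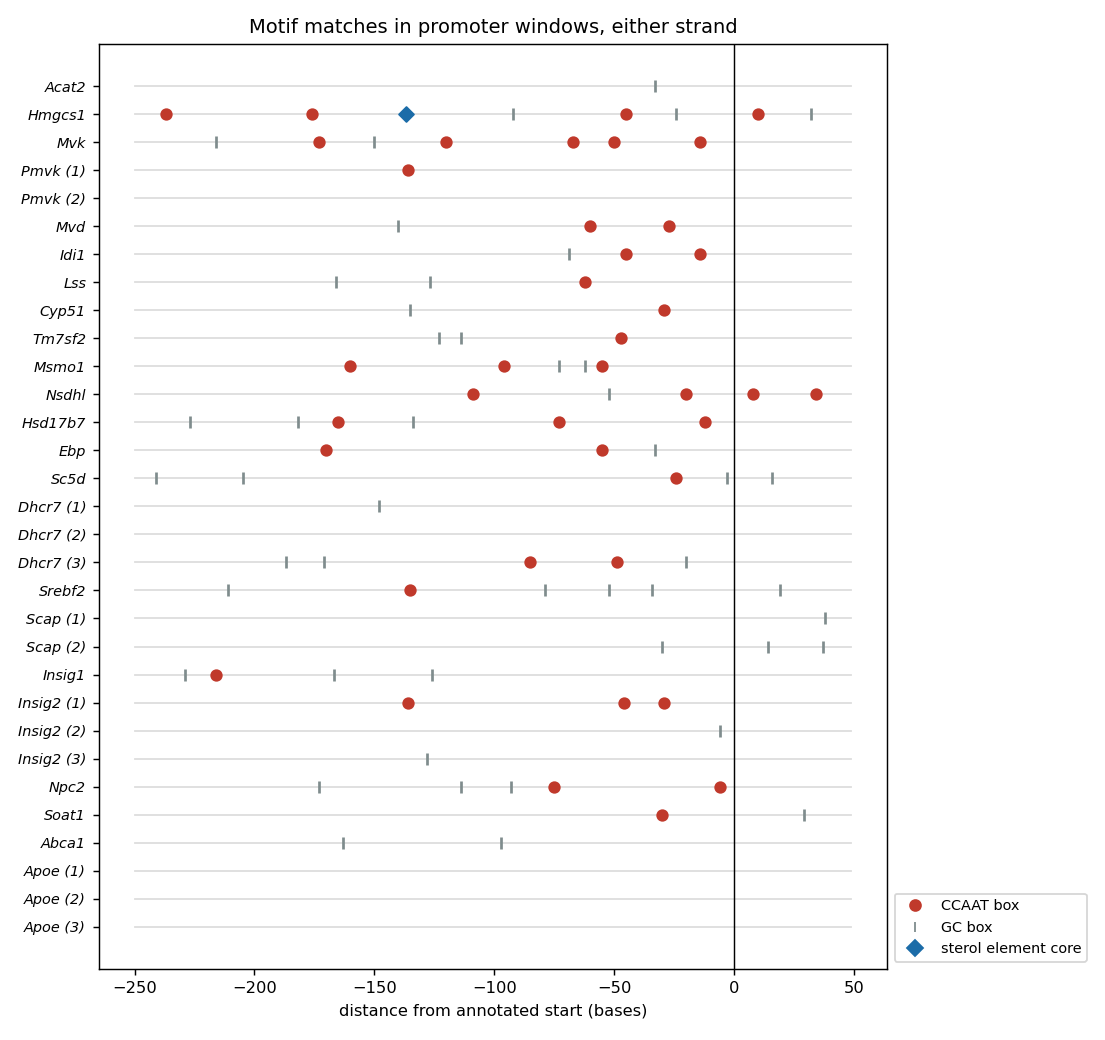
Motif matches in the RefSeq promoter windows of the 23 genes that had one, with 1 row for each window. Circles are CCAAT boxes, ticks GC boxes and the diamond the sterol element core. The horizontal axis is the distance in bases from the annotated start of each window, from 250 before to 50 after. CCAAT boxes lie in the windows of 14 of 15 enzyme genes, and the sterol element core lies in that of Hmgcs1 only.

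The reads behind the values ranged from 9.20 to 27.5 M per library, with a median of 21.6 M, and SMCs replicate 3 (9.20 M) and APCs replicate 4 (11.2 M) were the shallowest. Defining markers fitted the names in part. Summed mesothelial markers (Msln, Upk3b, Upk1b, Lrrn4, Wt1 and Krt19) reached 116500 to 119300 normalized counts in MLCs, against 8908 to 14030 in SMCs and 3828 to 4302 in APCs, and 2929 to 3459 in FIPs. Wt1 alone filled most of the APC sum, with a mean of 3996 ± 179, and most of the FIP sum, with 2880 ± 208. It was not higher in SMCs than in APCs (log2 fold change -0.41). The other 5 markers were each higher in SMCs than in APCs, by 6.01 (Msln) to 6.86 (Lrrn4) on that scale, and than in FIPs. The source of this mesothelial RNA in the SMC libraries was not tested. Smooth muscle markers (Acta2, Myh11, Tagln, Cnn1 and Des) summed to 3838 to 4412 in MLCs, 6596 to 11740 in SMCs and 1606 to 5067 in APCs, and 1735 to 2053 in FIPs. However, Myh11, the smooth muscle myosin heavy chain, was at 1288 ± 79.95 in MLCs and 1262 ± 412 in SMCs (SD, n = 4 each). Endothelial markers (Pecam1, Cdh5, Kdr and Tie1) summed to 2267 to 3121 in MLCs, 2107 to 3161 in SMCs and 316.2 to 666.9 in APCs, and 211.7 to 404.9 in FIPs. Cdh5 and Kdr were higher, and Pecam1 and Tie1 lower, in SMCs than in APCs. The progenitor markers also differed in direction. Pdgfra was at 23838 ± 1968 in SMCs and 20555 ± 248.5 in APCs, under 2-fold apart. It was at 22966 ± 975 in FIPs and 471 ± 44.8 in MLCs. Pparg was lower in SMCs, at 109.9 ± 58.2, than in APCs, at 1282 ± 56.3. Its level was 444 ± 47.7 in FIPs and 39.6 ± 5.92 in MLCs. Dpp4 was higher in SMCs, at 339.6 ± 86.3, than in APCs, at 52.6 ± 26.6. So was Pi16, at 4871 ± 507.8 in SMCs and 715 ± 39.3 in APCs. Both were higher still in FIPs, Dpp4 at 2053 ± 275 and Pi16 at 11573 ± 679. Dpp4 was highest in MLCs, at 8805 ± 405, and Pi16 lowest there, at 39.9 ± 3.31. Pdgfrb itself, whose receptor the sort used, averaged 456.6 ± 28.03 in MLCs, 3787 ± 411 in SMCs and 4717 ± 166 in APCs, and 2862 ± 197.7 in FIPs. APCs replicate 4 held 2388 normalized counts of the actin gene Acta2, against 155.8 to 221 in the other 3 APC libraries. Of the 6 macrophage genes, Ptprc, Adgre1 and C1qa averaged under 10 in each population, while Csf1r averaged 2210 ± 191 in MLCs, 258 ± 64.99 in SMCs and 28.8 ± 8.63 in APCs, and 27.2 ± 6.27 in FIPs, and was higher in MLCs than in each other population. Leaving out SMCs replicate 3 and APCs replicate 4 together gave 10 enzymes lower and 0 higher in SMCs than in APCs, the same counts as with all libraries.

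The synthesis enzymes were highest in APCs and lowest in SMCs as a group. Set against each gene's mean over the 16 libraries, the mean log2 level of the 18 enzymes was -0.08 to 0.00 in the 4 MLC libraries, -0.48 to -0.36 in SMCs and 0.35 to 0.51 in APCs, and -0.12 to 0.11 in FIPs. The ranges of SMCs and APCs overlapped no other population, and those of MLCs and FIPs overlapped each other. By population mean, 4 enzymes were highest in MLCs, 2 in SMCs and 11 in APCs, and 1 in FIPs. By the same means 4 were lowest in MLCs, 11 in SMCs and 0 in APCs, and 3 in FIPs. Of the 10 other genes tested, 2 were lowest in MLCs, 7 in SMCs and 1 in APCs, and 0 in FIPs, while 5 were highest in MLCs, 0 in SMCs and 2 in APCs, and 3 in FIPs. Cell cycle markers (Mki67, Top2a, Cdk1, Ccnb1 and Rrm2), whose genes serve dividing cells, summed to 18810 to 21320 normalized counts in MLCs, 5885 to 7774 in SMCs and 8176 to 11760 in APCs, and 4213 to 5159 in FIPs. Mature adipocyte markers (Adipoq, Plin1, Cidec, Lep and Lipe) summed to 197 to 229 in MLCs, 244 to 521 in SMCs and 1974 to 2472 in APCs, and 126.0 to 159.6 in FIPs, with Lep under 2 on average in each population. The part of these 2 marker groups in the enzymes' order was not tested.

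**Figure D2:**
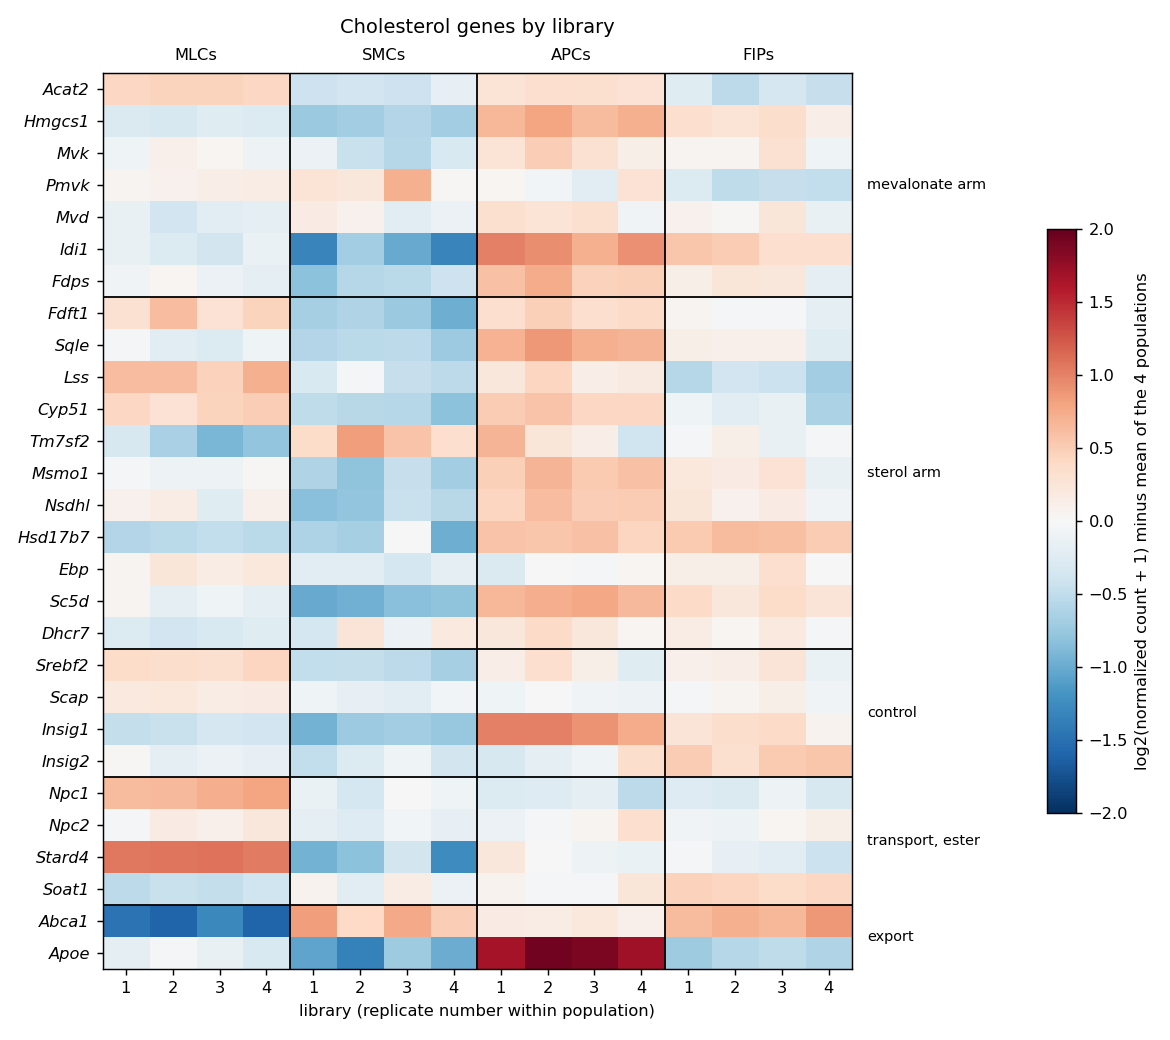
Colour shows log2(normalized count + 1) of the 28 tested genes in each of the 16 libraries, relative to the gene's mean over the 4 populations, with genes in pathway order from top to bottom and MLCs, SMCs, APCs and FIPs from left to right. Most enzyme rows are blue in the SMC columns, where their mean is -0.48 to -0.36, and red in the APC columns, where it is 0.35 to 0.51; Abcg1, which passed no filter, is not drawn.

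In what follows a gene is called higher or lower in the first population of a pair when limma gave a Benjamini-Hochberg adjusted p under 0.05 over all tested genes and a change of at least 2-fold on the log2(normalized count + 1) scale. The pair with the most calls among the 28 genes was SMCs against APCs: 12 genes were called lower and 0 higher, where 17.2% of all tested genes were called, 13.5% higher and 3.79% lower. Of the 18 enzymes 10 were lower, with a median log2 fold change of -1.10 against 0.02 over all tested genes. The other 10 genes had 2 lower, Insig1 and Apoe, and a median of -0.24. By the adjusted p alone 18 of the 28 were lower and 1 higher, where 26.3% of all genes were lower and 29.8% higher. The 10 enzymes were also the number lower with libraries scaled to equal totals, with quantile normalization, with TMM, with edgeR and with DESeq2. Under quantile normalization 56.0% of all calls in this pair were higher in SMCs, against 78.0% as deposited.

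In SMCs against FIPs, 4 genes were lower and 0 higher, where 17.9% of all genes were called, 13.3% higher and 4.60% lower (54.5% of calls higher under quantile normalization, 74.3% as deposited). The 4 were the enzymes Idi1, Hsd17b7 and Sc5d, and Insig1. With equal totals Idi1 alone was called. Most other enzymes leaned the same way by less than 2-fold: by the adjusted p alone 12 enzymes were lower and 2, Pmvk and Tm7sf2, higher, and among all 28 genes 19 were lower and 2 higher, where 26.4% of all genes were lower and 27.6% higher. The median of the enzymes was -0.53.

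In APCs against FIPs only Apoe was called, higher in APCs, where 10.4% of all genes were called, 5.22% higher and 5.20% lower (67.5% of calls higher with equal totals, 50.1% as deposited). No enzyme was called by limma, edgeR or DESeq2, while 14 of 18 had an unadjusted p under 0.05. By the adjusted p alone 12 enzymes were higher in APCs and 0 lower, with a median log2 difference of 0.43. Over all 28 genes 14 were higher and 3 lower, where 19.8% of all genes were higher and 21.3% lower. The enzymes' lean to APCs was thus nearly uniform in sign, 16 of 18 positive, and under 2-fold for each, except Lss with equal totals, which was then called at 1.01.

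The calls for MLCs went in both directions in each pair. Against SMCs, 3 genes were higher (Fdft1, Cyp51 and Stard4) and 2 lower (Tm7sf2 and Abca1), where 27.9% of all genes were called, 14.4% higher and 13.5% lower. By the adjusted p alone 20 were higher and 4 lower, where 35.3% and 30.3% of all genes were, and the enzymes' median was 0.47. Against APCs, 2 were higher (Npc1 and Stard4) and 5 lower (Idi1, Hsd17b7, Insig1, Abca1 and Apoe), where 29.6% of all genes were called, 17.7% higher and 11.8% lower. By the adjusted p alone 6 were higher and 16 lower, where 34.9% and 32.6% of all genes were, and the enzymes' median was -0.50. Against FIPs, 2 were higher (Lss and Stard4) and 2 lower (Hsd17b7 and Abca1), where 31.1% of all genes were called, 18.6% higher and 12.5% lower (71.4% of calls higher with equal totals, 59.8% as deposited). With equal totals 5 of the 28 were higher, Acat2, Cyp51 and Npc1 being added, and 1, Abca1, lower. By the adjusted p alone 10 were higher and 11 lower, where 34.6% and 32.6% of all genes were. The enzymes' median in MLCs against FIPs was -0.18 and turned to 0.15 with equal totals, a scaling that moved the median of all genes in this pair from 0.02 to 0.35. That scaling also moved the median of all genes to 0.15 for MLCs against SMCs, 0.11 for MLCs against APCs, 0.23 for SMCs against FIPs and 0.23 for APCs against FIPs, and the enzymes' medians there kept their signs.

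**Figure D3:**
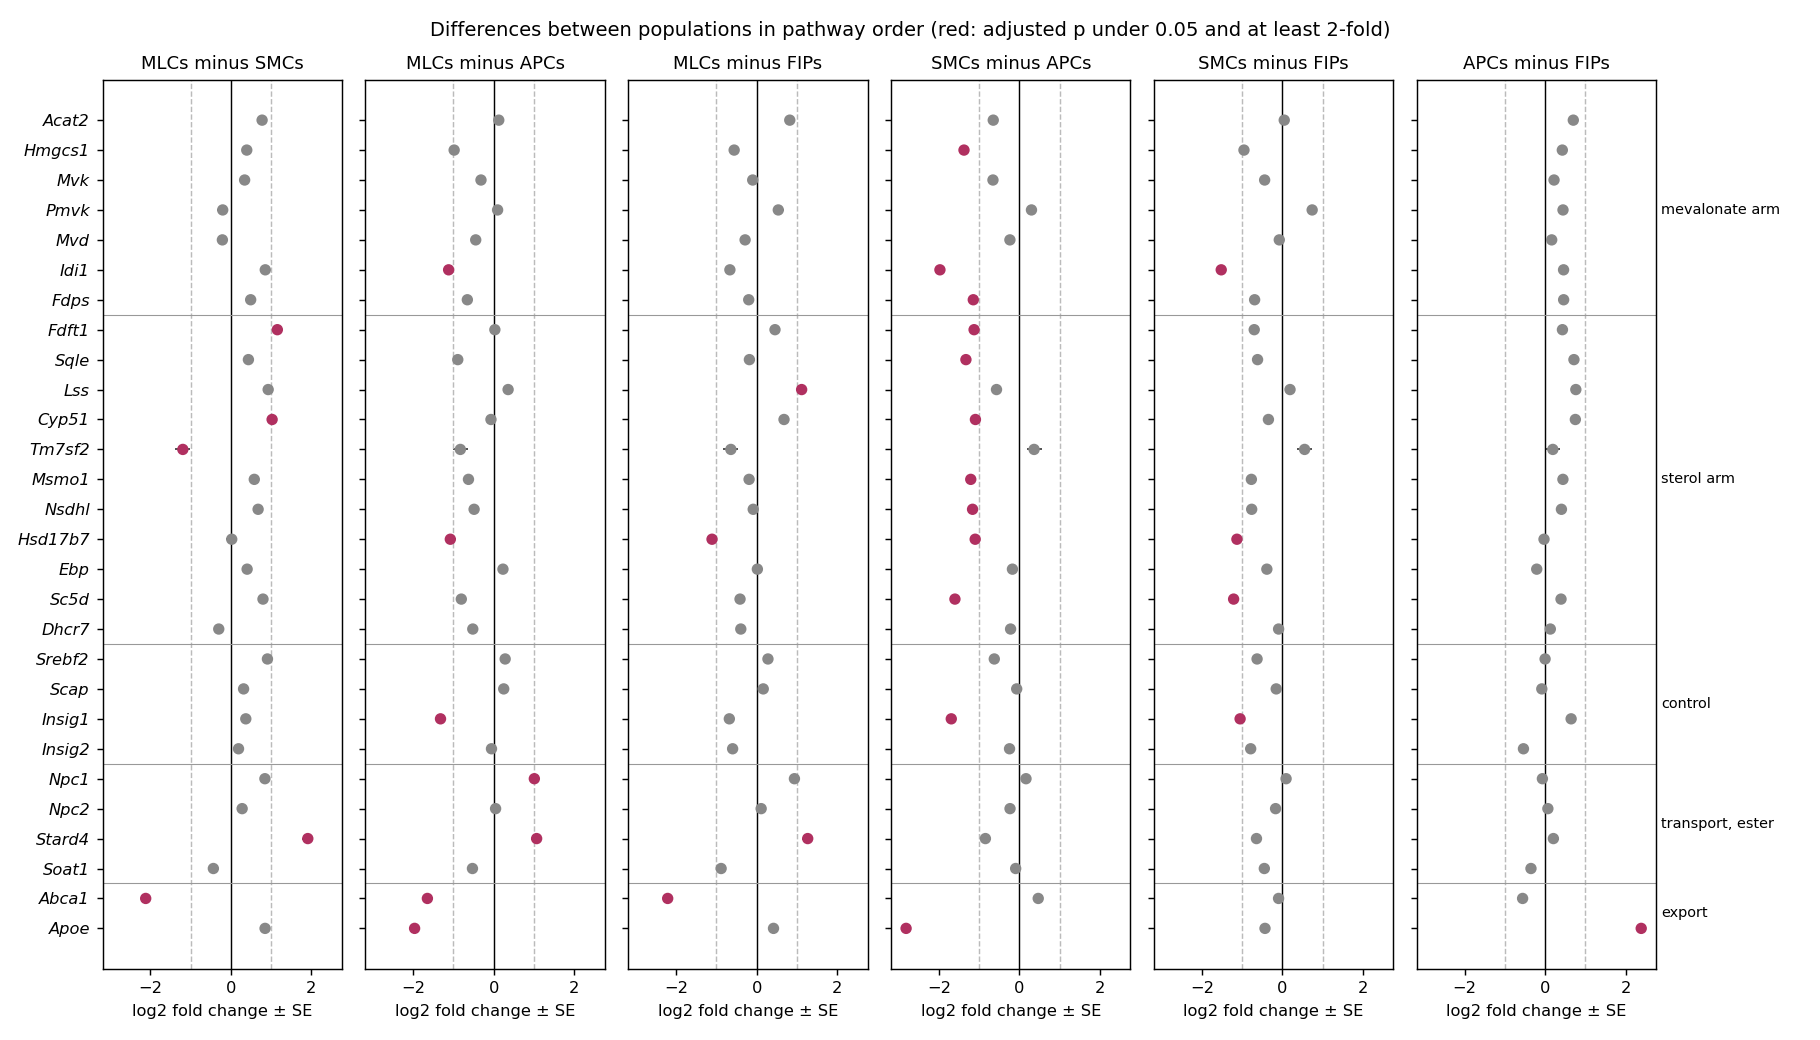
Log2 fold change of each tested gene, in pathway order along the vertical axis, for the 6 pairs of populations (first population over second); points are limma estimates, bars are 1 SE and are mostly hidden by the points, red points are called, and dashed lines mark 2-fold. In SMCs against APCs the points of Hmgcs1, Idi1, Fdps, Fdft1, Sqle, Cyp51, Msmo1, Nsdhl, Hsd17b7 and Sc5d lie past 2-fold on the lower side, and those of Mvk, Pmvk and Mvd between them do not.

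The mevalonate arm opens with Acat2, the thiolase that joins acetyl-CoA units, and Hmgcs1, the synthase that makes HMG-CoA. Hmgcs1 (GRCm38 chr13:119690351-119708260) had normalized counts of 3658, 3581, 3768 and 3693 in MLCs, 2664, 2758, 2980.5 and 2778 in SMCs, 7118, 7704, 6933 and 7316 in APCs, and 5638, 5407, 5718 and 4899.8 in FIPs. All 4 populations were separate, with APCs on top and SMCs at the bottom. Hmgcs1 was lower in SMCs than in APCs (log2 fold change -1.38 ± 0.06 SE, adjusted p = 1.99e-13). It was 0.95 lower on that scale in SMCs than in FIPs and 0.98 lower in MLCs than in APCs, just short of 2-fold. The second of these passed 2-fold with TMM and with edgeR (-1.004 each) and without APCs replicate 3 (-1.005). Acat2 averaged 339 ± 4.21 in MLCs, 198 ± 16.7 in SMCs and 310.4 ± 7.26 in APCs, and 191 ± 16.8 in FIPs. Its order was another: MLCs and APCs were high and SMCs and FIPs low, and no pair reached 2-fold. Acat3, a near-identical neighbour of Acat2 that could share its reads, averaged 41.4 ± 4.801 in MLCs and 10.8 ± 4.57 in SMCs.

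The next steps add phosphates and remove a carboxyl group. Mvk, mevalonate kinase, averaged 388 ± 26.8 in MLCs, 307 ± 41.5 in SMCs and 484 ± 51.3 in APCs, and 416 ± 48.5 in FIPs. Pmvk, which adds the next phosphate, averaged 219.8 ± 6.58 in MLCs, 257 ± 55.04 in SMCs and 207 ± 31.6 in APCs, and 151 ± 11.5 in FIPs, and Mvd, the decarboxylase, averaged 134 ± 9.06 in MLCs, 155 ± 19.00 in SMCs and 183 ± 22.1 in APCs, and 164 ± 18.5 in FIPs. None of these 3 consecutive steps was called in any pair: Mvk was lower in SMCs than in APCs by 0.66 on the log2 scale, while the same pair gave 0.30 for Pmvk (adjusted p = 0.0596) and -0.24 for Mvd (adjusted p = 0.108), with overlapping libraries. Pmvk was highest by mean in SMCs, and its libraries there spread from 206 to 335.

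Idi1, the isomerase that readies isoprene units for joining, differed most among the enzymes. It (GRCm38 chr13:8885606-8892396) had normalized counts of 225, 206, 194 and 228 in MLCs, 98.97, 155, 124 and 99.1 in SMCs, 501, 475, 409 and 474 in APCs, and 366, 356, 314 and 316 in FIPs. No library of one population overlapped another population, again in the order APCs, FIPs, MLCs and SMCs from high to low. Idi1 was lower in SMCs than in APCs (-1.98 ± 0.12 SE, adjusted p = 1.3e-10) and than in FIPs (-1.52 ± 0.12 SE, adjusted p = 4.4e-09), and lower in MLCs than in APCs (-1.12 ± 0.12 SE, adjusted p = 1.45e-07). Fdps, which joins the units into farnesyl diphosphate, averaged 367 ± 24.3 in MLCs, 261 ± 29.6 in SMCs and 579 ± 55.4 in APCs, and 422 ± 53.9 in FIPs, and was lower in SMCs than in APCs by 1.15 on the log2 scale (adjusted p = 2.27e-08). Annotated exons of Gm43738 on the same strand cover 77.4% of those of Fdps, and shorter overlaps with opposite-strand genes exist for Hmgcs1 and Idi1, so reads may be shared.

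The sterol arm begins with Fdft1, squalene synthase, the first step committed to sterols. Fdft1 (GRCm38 chr14:63145150-63181687) had normalized counts of 401, 499.8, 397 and 446 in MLCs, 206, 215, 194 and 166 in SMCs, 412, 456, 411 and 424 in APCs, and 340.3, 318, 322 and 286 in FIPs. MLCs and APCs shared the top, FIPs lay below them and SMCs at the bottom, apart from all others. Fdft1 was higher in MLCs than in SMCs (1.16 ± 0.10 SE, adjusted p = 2.38e-09) and lower in SMCs than in APCs (-1.13 ± 0.10 SE, adjusted p = 8.94e-09). Of its exon bases 20.9% lie opposite exons of Ctsb, a lysosomal protease gene at 10052 ± 232 in MLCs, 6766 ± 353 in SMCs and 7391 ± 707 in APCs, and 8584 ± 625 in FIPs, and the strand setting of the counting is not given, so the part of Ctsb reads in these values was not tested.

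Sqle, squalene epoxidase, a rate-limiting step that needs oxygen, had normalized counts of 913, 799, 776 and 887 in MLCs, 625, 646, 651 and 568 in SMCs, 1518, 1712, 1533 and 1503 in APCs, and 1017, 1009, 1006 and 798 in FIPs. APCs stood above all others and SMCs below, while MLCs and FIPs overlapped. Sqle (GRCm38 chr15:59315092-59331193) was lower in SMCs than in APCs (-1.33 ± 0.08 SE, adjusted p = 8.13e-11). Lss, which closes squalene epoxide into the rings of lanosterol, broke the order. It averaged 299 ± 20.3 in MLCs, 158 ± 25.5 in SMCs and 233 ± 22.6 in APCs, and 137 ± 13.4 in FIPs, and was higher in MLCs than in FIPs (1.12 ± 0.12 SE, adjusted p = 5.26e-08), a call lost with quantile normalization, where it was 0.85.

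Lanosterol loses its methyl groups through Cyp51, Tm7sf2, Msmo1, Nsdhl and Hsd17b7. Cyp51, the lanosterol demethylase, averaged 1608 ± 96.00 in MLCs, 790.3 ± 71.3 in SMCs and 1685 ± 92.7 in APCs, and 1011 ± 159 in FIPs. MLCs and APCs overlapped at the top. Cyp51 was lower in SMCs than in APCs (-1.09 ± 0.10 SE, adjusted p = 1.48e-08) and higher in MLCs than in SMCs (1.03 ± 0.10 SE, adjusted p = 1.5e-08), a value at the edge of 2-fold. It was 0.999 without MLCs replicate 4, 0.96 without SMCs replicate 4 and 0.99 with quantile normalization, and then not called.

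Tm7sf2, a sterol reductase, had another order than most enzymes. It had normalized counts of 91.3, 72.7, 60.5 and 66.02 in MLCs, 147, 206, 171 and 144 in SMCs, 184, 135, 126 and 86.5 in APCs, and 111, 124, 103 and 112 in FIPs. SMCs held the highest values and MLCs the lowest, and APCs, spread from 86.5 to 184, overlapped MLCs, SMCs and FIPs. Tm7sf2 (GRCm38 chr19:6062821-6067850) was lower in MLCs than in SMCs (-1.19 ± 0.19 SE, adjusted p = 1.67e-05), and in SMCs against APCs its log2 fold change was 0.36 (adjusted p = 0.109). Without APCs replicate 4, it was also called lower in MLCs than in APCs, at -1.02 against -0.83 with all libraries. With quantile normalization of all libraries it was called too, at -1.09.

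Msmo1, the methylsterol oxidase, had normalized counts of 569, 546, 544 and 592 in MLCs, 386, 335, 425 and 359.7 in SMCs, 818, 941, 844 and 877 in APCs, and 676, 655, 719 and 526 in FIPs. APCs lay above and SMCs below the rest, and MLCs and FIPs overlapped. Msmo1 (GRCm38 chr8:64718123-64733578) was lower in SMCs than in APCs (-1.21 ± 0.09 SE, adjusted p = 1.46e-09). Nsdhl, the dehydrogenase of the same demethylation, had normalized counts of 328, 345, 263 and 334 in MLCs, 174, 179, 228 and 212 in SMCs, 418, 477, 438 and 441 in APCs, and 367, 330.0, 348 and 297 in FIPs. It showed the same order as Msmo1, with MLCs and FIPs overlapping between APCs and SMCs. Nsdhl (GRCm38 chrX:72918521-72958528) was lower in SMCs than in APCs (-1.17 ± 0.11 SE, adjusted p = 2.46e-08).

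Hsd17b7, the reductase that ends the demethylation, split the populations into pairs. It averaged 354 ± 9.17 in MLCs, 359.7 ± 111 in SMCs and 748 ± 38.3 in APCs, and 763 ± 32.7 in FIPs. The libraries of MLCs and SMCs overlapped, as did those of APCs and FIPs, and every library of the first 2 populations was below every library of the others. It was lower in MLCs than in APCs (-1.08 ± 0.13 SE, adjusted p = 5.68e-07) and than in FIPs (-1.11 ± 0.13 SE, adjusted p = 3.68e-07), and lower in SMCs than in APCs (-1.10 ± 0.13 SE, adjusted p = 1.03e-06) and than in FIPs (-1.13 ± 0.13 SE, adjusted p = 6.35e-07). The SMC calls depended on SMCs replicate 4: without it the log2 fold changes were -0.96 against APCs and -0.99 against FIPs, not called. With equal totals Hsd17b7 was called only in SMCs against APCs, with -0.99 in MLCs against APCs, -0.77 in MLCs against FIPs and -0.91 in SMCs against FIPs.

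The last steps are run by Ebp, Sc5d and Dhcr7. Sc5d, the sterol desaturase, had normalized counts of 766, 648, 696 and 644 in MLCs, 367, 379, 412 and 422 in SMCs, 1171, 1220.5, 1258 and 1155 in APCs, and 965, 863, 953 and 879 in FIPs. The populations did not overlap, in the order APCs, FIPs, MLCs and SMCs that Hmgcs1 and Idi1 also had. Sc5d (GRCm38 chr9:42251592-42264300) was lower in SMCs than in APCs (-1.60 ± 0.07 SE, adjusted p = 5.68e-13) and than in FIPs (-1.21 ± 0.07 SE, adjusted p = 2.12e-11), and the second value was -0.99 with equal totals, not called. Ebp, the sterol isomerase, averaged 367 ± 19.4 in MLCs, 277 ± 14.7 in SMCs and 314 ± 30.98 in APCs, and 363 ± 36.8 in FIPs, and Dhcr7, the reductase that yields cholesterol itself, averaged 254 ± 10.5 in MLCs, 317 ± 60.7 in SMCs and 366 ± 35.2 in APCs, and 334 ± 22.5 in FIPs. Neither was called in any pair, and Dhcr7 was lower in MLCs than in APCs by 0.52 on the log2 scale (adjusted p = 0.000488). Fewer steps of the mevalonate arm than of the sterol arm were thus called lower in SMCs than in APCs, 3 of 7 and 7 of 11, and whether the arms differ was not tested.

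The genes that control synthesis did not move as one. Insig1, which holds SREBP-2 in the endoplasmic reticulum and is itself an SREBP target, had normalized counts of 1423, 1452, 1559 and 1511 in MLCs, 1024, 1188, 1221 and 1166 in SMCs, 3978, 3977, 3653 and 3294 in APCs, and 2366, 2526, 2576 and 2068 in FIPs. Its populations did not overlap and had the order of Hmgcs1, Idi1 and Sc5d. Insig1 (GRCm38 chr5:28071412-28078662) was lower in SMCs than in APCs (-1.69 ± 0.08 SE, adjusted p = 1.12e-12) and than in FIPs (-1.05 ± 0.08 SE, adjusted p = 7.94e-10), and lower in MLCs than in APCs (-1.32 ± 0.08 SE, adjusted p = 7.08e-12). The SMCs against FIPs value was -0.83 with equal totals, -0.92 with quantile normalization and -0.995 without SMCs replicate 1, and was not called there.

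Insig2, its relative, had normalized counts of 579, 494, 523 and 504 in MLCs, 401, 469, 534 and 441 in SMCs, 452, 500.5, 537 and 721 in APCs, and 811, 708, 819 and 834 in FIPs. FIPs were highest and overlapped APCs alone, through 1 APC library at 721. Insig2 was not called in any pair, and by the adjusted p alone it was lower in SMCs than in FIPs (-0.79 ± 0.12 SE, adjusted p = 1.2e-05). Srebf2, the gene of SREBP-2, had normalized counts of 3577, 3542, 3479.9 and 3738 in MLCs, 1971, 1982, 1924 and 1756 in SMCs, 3054, 3484, 3008 and 2334 in APCs, and 2975, 3032, 3308 and 2520.2 in FIPs. MLCs were high, with 1 APC library reaching into their range, SMCs were below all others, and APCs and FIPs overlapped. Srebf2 (GRCm38 chr15:82147269-82205379) was higher in MLCs than in SMCs (0.91 ± 0.10 SE, adjusted p = 7.15e-08), short of 2-fold as deposited and 1.03 with equal totals. Scap, the escort of SREBP-2, averaged 1645 ± 33.7 in MLCs, 1322 ± 69.4 in SMCs and 1385 ± 42.4 in APCs, and 1469 ± 90.6 in FIPs, and varied least of the 4, with no pair called. Thus the populations with the most and the least Srebf2 were MLCs and SMCs, while those with the most and the least Insig1 and enzyme RNA were APCs and SMCs.

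**Figure D4:**
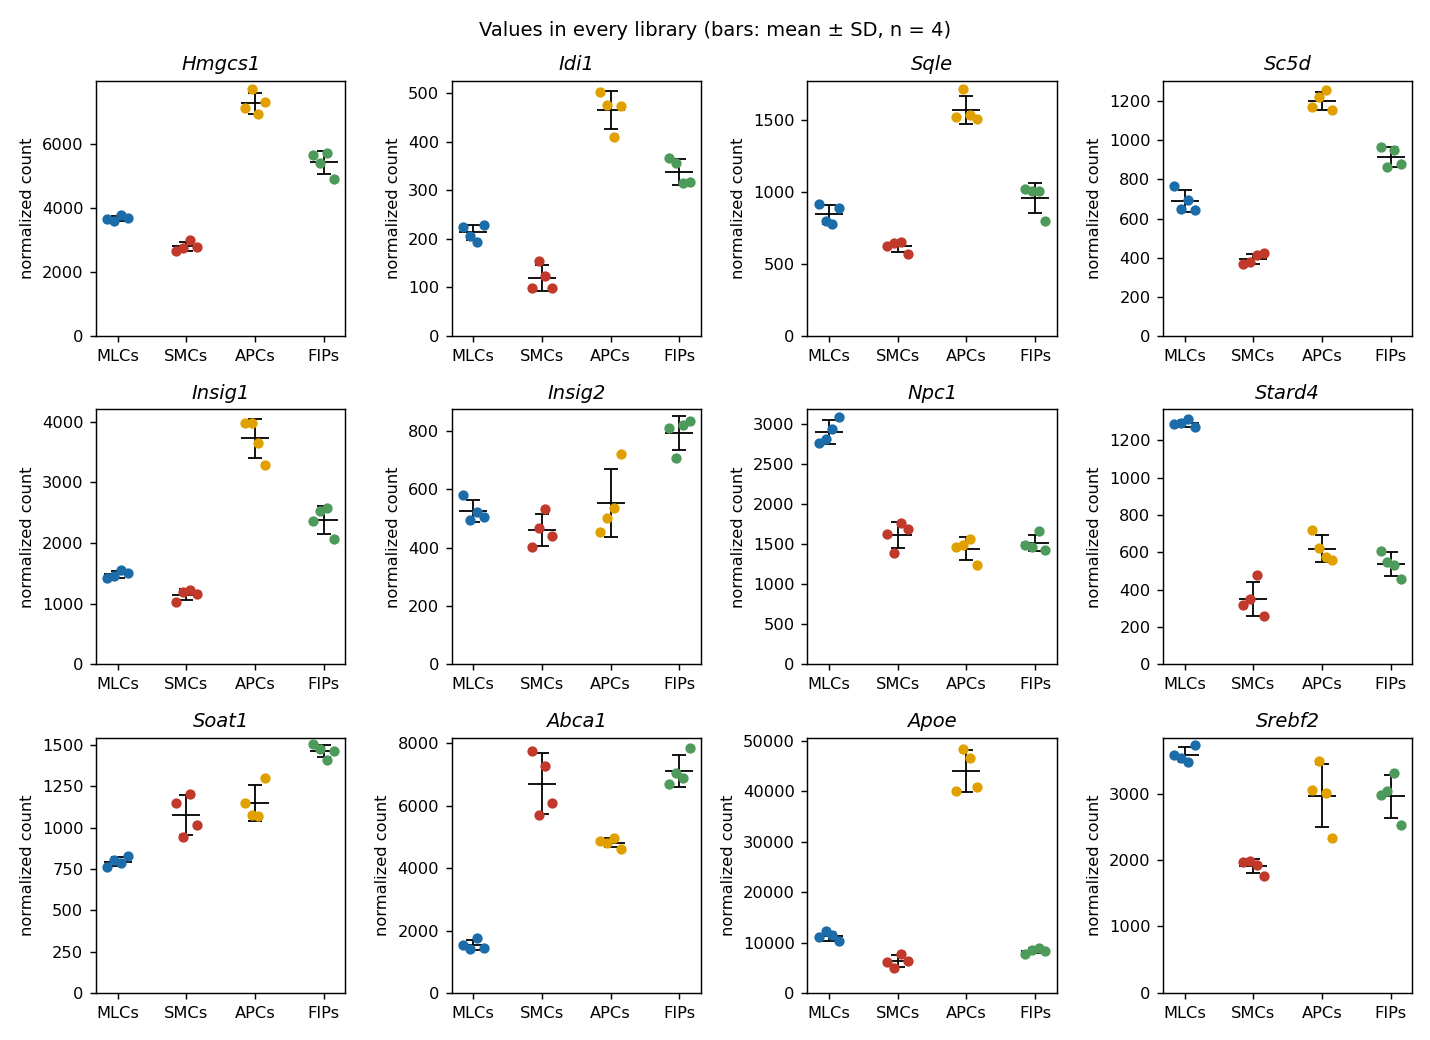
Normalized counts of genes named in the text in each library (points, linear axes from 0), with bars for the mean ± SD of 4 libraries, for MLCs, SMCs, APCs and FIPs from left to right in each panel. Apoe lies at 39993 to 48412 in APCs, above every other library, and Stard4 at 1270 to 1312 in MLCs, above every other library.

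Of the 4 genes that move or esterify cholesterol inside the cell, Stard4, Npc1 and Npc2 had their highest mean in MLCs and Soat1 its lowest, and Npc2 was called in no pair. Stard4, a carrier that shuttles cholesterol between membranes and an SREBP target, had normalized counts of 1289, 1291, 1312 and 1270.3 in MLCs, 319, 348, 478 and 257 in SMCs, 719, 622, 573 and 560.3 in APCs, and 609, 551, 531 and 457 in FIPs. Each MLC library lay above every other library, and SMCs were lowest, with 1 library overlapping FIPs. Stard4 (GRCm38 chr18:33199138-33213862) was higher in MLCs than in SMCs (1.91 ± 0.13 SE, adjusted p = 2.15e-10), APCs (1.07 ± 0.13 SE, adjusted p = 8.29e-07) and FIPs (1.27 ± 0.13 SE, adjusted p = 6.75e-08). SMCs replicate 3 was the highest of its population, and Stard4 was called lower in SMCs than in APCs without that library, at -1.01, and not with it, at -0.85.

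Npc1, the lysosomal membrane protein that releases cholesterol, had normalized counts of 2769.8, 2816, 2944 and 3094 in MLCs, 1626, 1394, 1774 and 1688 in SMCs, 1471, 1497, 1574 and 1245 in APCs, and 1495, 1467, 1663 and 1434 in FIPs. MLCs were again above every other library, and the other 3 populations overlapped. Npc1 (GRCm38 chr18:12189694-12236506) was higher in MLCs than in APCs (1.01 ± 0.08 SE, adjusted p = 8.17e-10), at the edge of 2-fold: it was 0.98 without MLCs replicate 4, 0.94 without APCs replicate 4, 0.99 with TMM and 0.97 with edgeR, and then not called. In MLCs against FIPs it was 0.94 as deposited and 1.28 with equal totals. Npc2, the soluble partner that hands cholesterol to Npc1, had normalized counts of 3335, 3835, 3694 and 4007 in MLCs, 2991, 2882, 3292 and 3056 in SMCs, 3158, 3366, 3584 and 4356 in APCs, and 3255, 3198, 3547 and 3738 in FIPs. Its populations overlapped except MLCs and SMCs, and no pair was called.

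Soat1, which esterifies cholesterol for storage, had normalized counts of 759.9, 806, 786 and 827 in MLCs, 1152, 943, 1206 and 1014 in SMCs, 1149, 1079, 1071 and 1300.4 in APCs, and 1506, 1476, 1412 and 1463 in FIPs. MLCs were lowest and FIPs highest, each apart from all others, with SMCs and APCs overlapping between them. Soat1 (GRCm38 chr1:156428108-156474328) was lower in MLCs than in FIPs (-0.88 ± 0.08 SE, adjusted p = 2.72e-09), short of 2-fold.

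Of the 28 tested genes, the export genes Apoe and Abca1 had the widest spread between populations. Abca1, the transporter that loads cholesterol onto apolipoproteins, had normalized counts of 1551, 1419.9, 1775 and 1425 in MLCs, 7757, 5714, 7289 and 6096 in SMCs, 4867, 4798, 4983 and 4629 in APCs, and 6687, 7060.4, 6881 and 7853 in FIPs. Every MLC library was below every library of the other populations, and SMCs and FIPs overlapped at the top. Abca1 (GRCm38 chr4:53030789-53159988) was lower in MLCs than in SMCs (-2.12 ± 0.09 SE, adjusted p = 7.32e-14), APCs (-1.65 ± 0.09 SE, adjusted p = 2.18e-12) and FIPs (-2.21 ± 0.09 SE, adjusted p = 1.99e-14). Abcg1, a related transporter that passes cholesterol to high-density lipoprotein, had normalized counts of 5.03, 5.07, 1.48 and 9.68 in MLCs, 14.7, 8.54, 10.7 and 2.04 in SMCs, 6.76, 5.04, 5.004 and 13.8 in APCs, and 7.91, 3.698, 3.82 and 1.81 in FIPs. These values rest on few reads and overlapped between all populations, and Abcg1 was not tested for a difference.

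Apoe, the apolipoprotein that carries exported cholesterol, had normalized counts of 11012, 12289, 11455 and 10229 in MLCs, 6068, 4979.9, 7767 and 6381 in SMCs, 39993, 48412, 46662 and 40856 in APCs, and 7762, 8516, 8927 and 8358 in FIPs. The APC libraries lay far above all others, MLCs came next, and SMCs and FIPs overlapped. Apoe (GRCm38 chr7:19696244-19701310) was higher in APCs than in FIPs (2.39 ± 0.10 SE, adjusted p = 9.02e-13), and lower in SMCs than in APCs (-2.82 ± 0.10 SE, adjusted p = 5.8e-14) and in MLCs than in APCs (-1.97 ± 0.10 SE, adjusted p = 1.41e-12). Apoe is also a macrophage gene. In APCs, Ptprc averaged 4.36 ± 4.56 normalized counts, Adgre1 3.45 ± 2.64 and C1qa 6.16 ± 2.84, against 5.71 ± 2.88, 3.83 ± 2.85 and 4.46 ± 1.51 in FIPs (SD, n = 4 each), and the summed macrophage list was 2348 to 2902 in MLCs, most of it Csf1r, and, most of it Cd68, 814 to 984.5 in SMCs and 501.5 to 1257 in APCs, and 487 to 820.0 in FIPs. Mature adipocyte markers, at the sums given above, were like Apoe highest in APCs. Their order was otherwise another: SMCs, with the lowest mean of Apoe, had higher sums than MLCs and FIPs. The part of these markers in Apoe was not tested.

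Read counts grow with transcript length, so levels of different genes were set side by side only per kilobase of annotated exon. Averaged over the populations, Apoe stood at 9510 normalized counts per kilobase, far above Hmgcs1 at 1375, the highest of the enzymes. Lss was the lowest enzyme, at 44.3 per kilobase, and Abcg1 had 0.962. Next to Hmgcs1 (803 ± 38.3 in SMCs and 2087 ± 94.8 in APCs), the following steps were all lower per kilobase. Mvk was at 154 ± 20.8 in SMCs and 243 ± 25.7 in APCs, and Idi1 at 39.4 ± 8.74 in SMCs and 154 ± 12.99 in APCs. Sqle stood at 226 ± 13.8 in SMCs and 568 ± 35.5 in APCs, and Cyp51 at 201 ± 18.1 in SMCs and 429 ± 23.6 in APCs. Exon unions from a public annotation stand in for the transcripts these cells use, which were not measured.

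**Figure D5:**
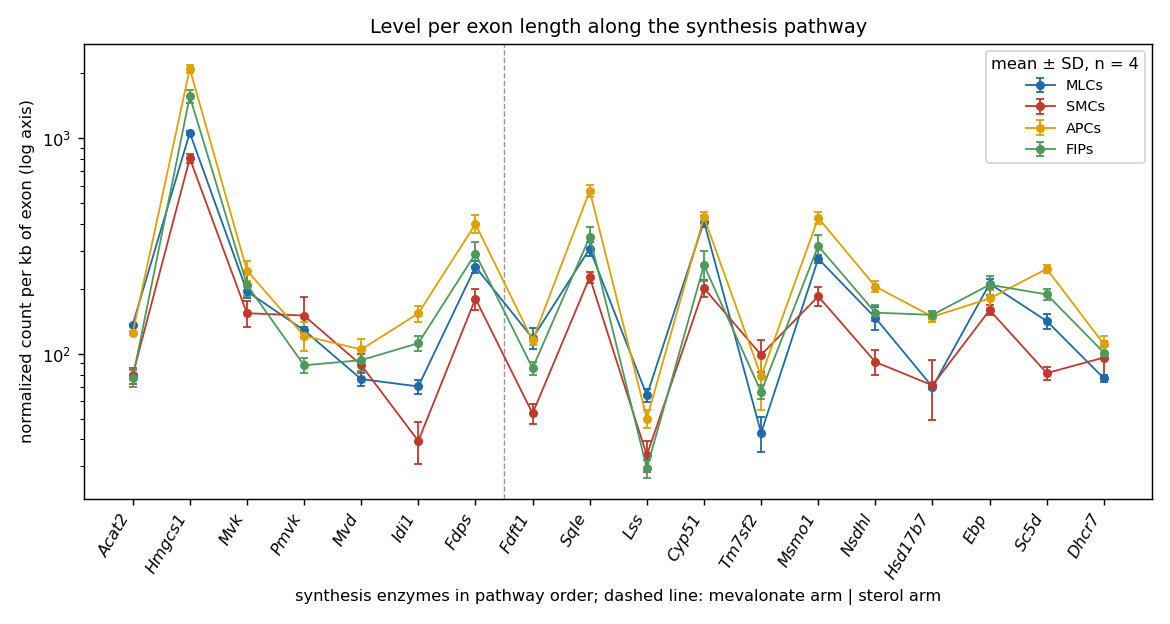
Normalized counts per kilobase of annotated exon (log axis) for the 18 enzymes in pathway order, with 1 line per population joining its means and bars of 1 SD over 4 libraries. Hmgcs1 is the highest enzyme, at 803 in SMCs and 2087 in APCs, and the populations lie far apart at Idi1, with 39.4 in SMCs and 154 in APCs.

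Other genes of the same pathways were looked up as lists. Of 12 further synthesis genes tested, 0 were called higher and 1 lower in SMCs than in APCs, against 13.5% and 3.79% of the genes tested. For MLCs against SMCs 2 were called higher and 0 lower, where 14.4% and 13.5% of all genes were. The list holds electron carriers of the oxidation steps: Cyb5r3, cytochrome b5 reductase, averaged 7175 ± 188 in MLCs, 2849 ± 243 in SMCs and 1552 ± 165 in APCs, and 3034 ± 243 in FIPs, and was higher in MLCs than in each other population, and Por, P450 reductase, was higher in MLCs than in FIPs (1.22 ± 0.05 SE, adjusted p = 2.56e-14). Cyb5b and Ggps1 were called in no pair.

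Among 10 uptake genes, 0 were called higher and 2 lower in SMCs than in APCs, against 13.5% and 3.79% of all genes. Cd36, a scavenger receptor and fatty acid carrier, averaged 267 ± 151 in MLCs, 177 ± 55.01 in SMCs and 1548 ± 336 in APCs, and 233 ± 30.9 in FIPs, and was lower in SMCs than in APCs (-3.15 ± 0.39 SE, adjusted p = 1.37e-06). Vldlr, a receptor for triglyceride-rich particles, averaged 1349 ± 91.4 in MLCs, 4646 ± 236 in SMCs and 3449 ± 192 in APCs, and 5052 ± 227 in FIPs, and was lower in MLCs in all 3 of its pairs. Lrp1, a large receptor that binds Apoe, averaged 24256 ± 1261 in MLCs, 71795 ± 7038 in SMCs and 48187 ± 10741 in APCs, and 58820 ± 3221 in FIPs, and was lower in MLCs than in SMCs and FIPs. Scarb1, the receptor for high-density lipoprotein, stood at 777 ± 68.6 in APCs, against 289 ± 28.8 in FIPs, its lowest population, and Lrp8 was low everywhere, at under 30 on average.

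Of 16 further genes of storage and intracellular transport, MLCs had 5 higher than SMCs, 7 higher than APCs and 7 higher than FIPs, and 0 lower in each of these pairs. Of all genes, 14.4%, 17.7% and 18.6% were higher in these pairs, and 13.5%, 11.8% and 12.5% lower. Lipa, the lysosomal lipase that frees cholesterol from its esters, averaged 3008 ± 58.2 in MLCs, 1212 ± 81.5 in SMCs and 819 ± 136 in APCs, and 940.3 ± 68.97 in FIPs. Nceh1, a neutral esterase for cholesteryl esters, averaged 711 ± 9.44 in MLCs, 342 ± 21.9 in SMCs and 44.2 ± 1.85 in APCs, and 77.9 ± 6.89 in FIPs. Both were higher in MLCs than in each other population. Cav1, the caveolar coat protein that binds cholesterol, averaged 45808 ± 1934 in MLCs, 4154 ± 781 in SMCs and 1974 ± 288 in APCs, and 319 ± 26.5 in FIPs, and was higher in MLCs in all 3 pairs, as was its partner Cav2. Gramd1b and Gramd1c, which carry cholesterol from the plasma membrane to the endoplasmic reticulum, were each higher in MLCs than in APCs and FIPs.

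Of 13 further export and LXR genes, MLCs had 6 lower than SMCs, 6 lower than APCs and 5 lower than FIPs, with 1, 2 and 1 higher. Of all genes, 13.5%, 11.8% and 12.5% were lower in these pairs, and 14.4%, 17.7% and 18.6% higher. Nr1h3, the gene of LXR alpha, averaged 61.5 ± 7.62 in MLCs, 108 ± 23.9 in SMCs and 535 ± 66.6 in APCs, and 357 ± 7.31 in FIPs. It was lower in MLCs than in APCs (-3.10 ± 0.14 SE, adjusted p = 1.42e-13) and FIPs, and lower in SMCs than in both. Apoc1, which lies beside Apoe in a cluster of apolipoprotein genes, averaged 5.596 ± 2.62 in MLCs, 18.97 ± 2.05 in SMCs and 148 ± 42.2 in APCs, and 21.9 ± 4.89 in FIPs, and was higher in APCs than in FIPs (2.69 ± 0.29 SE, adjusted p = 3.72e-07), as Apoe was. Apod, a lipocalin, averaged 2.25 ± 2.61 in MLCs, 203 ± 14.9 in SMCs and 135 ± 30.7 in APCs, and 122 ± 28.02 in FIPs. Ch25h, which makes 25-hydroxycholesterol, a sterol that holds back SREBP, was highest in MLCs, at 116 ± 14.6, against 23.1 ± 7.34 in SMCs and 15.99 ± 4.13 in APCs, and 5.21 ± 1.71 in FIPs. Cyp7b1, which clears such oxysterols, and Pltp, the phospholipid transfer protein, were both highest in SMCs, at 509 ± 30.9 and 1764 ± 234.

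SREBP also drives fatty acid synthesis, and a list of 14 further genes of the SREBP system holds such enzymes beside Srebf1, the proteases Mbtps1 and Mbtps2, and Rnf145. Of the 14, 0 were higher and 1 lower in SMCs than in APCs, where 13.5% and 3.79% of all genes were. In APCs against FIPs 0 were called by limma and 8 had an unadjusted p under 0.05, where 10.4% of all genes were called. The gene lower in SMCs was Elovl6, a fatty acid elongase (-1.21 ± 0.07 SE, adjusted p = 4.43e-11). In MLCs 4 were lower than in APCs and the same number lower than in FIPs, where 11.8% and 12.5% of all genes were. Scd2, a desaturase, averaged 2713 ± 213 in MLCs, 7844 ± 706 in SMCs and 8530.4 ± 748 in APCs, and 8708 ± 762 in FIPs, and Me1, malic enzyme, averaged 199.7 ± 14.7 in MLCs, 517 ± 64.2 in SMCs and 617 ± 86.97 in APCs, and 499 ± 19.1 in FIPs. Both were lower in MLCs in all 3 pairs. Acss2, acetyl-CoA synthetase, and Elovl6 were lower in MLCs than in APCs and FIPs, while Srebf1, the gene of SREBP-1, and Acly, ATP citrate lyase, were called in no pair.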

How the data were processed

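The deposited table holds 1 signal value per gene and library, read counts divided by 1 factor per library, as the values show. Tools named in the submitters' processing notes are DESeq2 1.6.3, featureCounts 1.4.6, HISAT2 2.0.1 and Trim Galore 0.4.1, beside the builds GRCm38 and mm10. For annotation, strand setting and shared reads, the rule is not given in the sources used here. The 4 columns headed SMLCs were matched to the SMC samples by their numbers.

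All values (100%) were whole multiples of 1 step per library within 0.01, which gave totals of 9.20 to 27.5 M reads. limma 3.58.1 in R 4.3.3 (trend, two-sided) was fitted to log2(value + 1) of 15024 genes with at least 10 in at least 4 libraries, with 4 populations in 1 model, so fold changes of low genes are understated. Calls needed an adjusted p (Benjamini-Hochberg) below 0.05 together with 2-fold or more, and ± gives the SD over 4 libraries, or the SE where named. On simulated data for SMCs against APCs, 98% of 2-fold changes passed the adjusted p and 36% were called. Each simulated gene had the same dispersion between libraries, 0.01, and 50 genes were changed at each fold. Genes with a wider spread, such as Hsd17b7 in SMCs (359.7 ± 111), were thus not represented. Alternatives were pseudocounts of 0.1 and 8, no filter and a filter at 50, equal totals, quantile and TMM scaling, a replicate block, no fold limit, each library left out, the 2 shallowest left out, and edgeR 4.0.16 and DESeq2 1.42.0 on recovered reads of 14 libraries. FIPs replicate 1 and APCs replicate 2, with steps of 0.989 and 1.007, stayed out of these count tests. Rows without a symbol (1275) were kept.

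Members and lists were chosen with earlier results of these data known. Values in every library are given for the called members with the 12 widest ranges of population means and for Insig1, Insig2, Srebf2, Abca1, Abcg1, Apoe, Soat1, Npc1, Npc2 and Stard4, and up to 6 genes of each further list are named by the same range. Some genes of those further lists are not reported here. Exon lengths are from GENCODE vM21.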

Additional observations from a re-analysis of the deposited data

Results flagged for a closer look

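In 4 of 116 sets of 4 libraries (1 gene in 1 population) a single library lay far from the other 3, by more than Dixon's 95% limit. Chance gives about 5% of such sets. Acat2 was at 222.8 normalized counts in SMCs replicate 4, against 187.9 to 192.1 in the other SMC libraries. Mvd was at 150.4 in APCs replicate 4, against 191.3 to 196.1. Sqle was at 1712 in APCs replicate 2, against 1503 to 1533, and at 798 in FIPs replicate 4, against 1006 to 1017.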

How the results depend on the processing

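No called value of a member turned its direction under any of the 28 alternatives. Of 33 calls of a member in a pair, 24 were kept in every alternative, setting aside the one without a fold limit, and 9 (those of Npc1, Lss, Hsd17b7, Sc5d, Insig1 and Cyp51 given above) were lost in at least 1. With equal totals the count of members called was 1 for SMCs against FIPs and 2 for APCs against FIPs. Without the fold limit the counts of members and of all genes were 24 and 9854 for MLCs against SMCs, 22 and 10139 for MLCs against APCs, 21 and 10093 for MLCs against FIPs, 19 and 8439 for SMCs against APCs, 21 and 8108 for SMCs against FIPs, and 17 and 6168 for APCs against FIPs. These follow from the wider rule. Leaving out 1 library at a time gave, in the same order of pairs, 4 to 6, 6 to 8, 4, 11 to 13, 3 to 4 and 1 members, and 3987 to 4212, 4250 to 4443, 4487 to 4698, 2451 to 2687, 2547 to 2723 and 1468 to 1601 genes.

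The labels do not say that replicate numbers mark a shared source, so no pairing was used. In their deviations, 6 of 24 same-numbered pairs correlated above 0.1, against 1 of 72 with other numbers, with medians of 0.059 and -0.019. That 13 of 16 libraries correlated best with their own number is a hint from the data, not the design. A replicate block gave 5, 7, 4, 12, 4 and 1 members called, as without it.

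Values near 10 normalized counts, such as those of Abcg1, rest on few reads and show no difference of moderate size. Reads shared with overlapping or near-identical genes could not be separated. Whether libraries are separate animals is not stated in the labels.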
